A study of Mus musculus with 8 samples.

Results

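Oligodendrocyte precursor cells (OPCs) are the dividing progenitors that later give rise to the myelinating oligodendrocytes of the brain. The expression of 7 genes that mark these cells or their specification was examined in the embryonic medial ganglionic eminence (MGE) with and without the transcription factor NKX2-1. The 7 genes are *Gpr17*, *Pdgfra*, *Olig1*, *Olig2*, *Sox10*, *Sox8* and *Cspg4*. They were selected on the measured signals of the same WT and *Nkx2-1*cKO arrays, so the differences between these groups are given below as a description and carry no test. Of the 7 genes, 6 have probes on the array, among 17178 gene symbols in all. *Sox10*, a transcription factor that oligodendrocyte lineage cells keep from precursor to myelinating stage, has no matched probe and no value is given for it. The 6 genes have 11 probes, of which 9 passed the filter on dim signal and are described as tested, and the other 2 are given separately.

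MGE tissue from C57BL/6 mouse embryos at embryonic day 13.5 was measured on 8 arrays, 4 WT and 4 *Nkx2-1*cKO. The labels give the WT samples as Nkx2-1flox/+;Olig2tva-cre- and the mutant samples as Nkx2-1flox/+;Olig2tva-cre+, so both groups carry a floxed *Nkx2-1* allele and only the mutants carry Cre. Cre is expressed here from the *Olig2* locus, in cells that use *Olig2*, and every mutant sample carries this allele while no WT sample does. For every gene, *Olig2* and its neighbour *Olig1* among them, an effect of the Cre allele and an effect of the loss of *Nkx2-1* cannot be told apart. The samples are whole dissected tissue, in which fewer cells of a type and less RNA per cell cannot be told apart.

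*Nkx2-1* itself fell from 1.87 ± 0.06 (SD, n = 4) in WT to -4.46 ± 0.19 (SD, n = 4) in the mutants, which is 1.24% of the WT level (limma adjusted p = 4.7e-09). The low *Nkx2-1* level goes against the heterozygous floxed genotype in the labels of the mutants. Values of single genes are log2 signals relative to the 75th percentile of the array. Differences are *Nkx2-1*cKO minus WT on this log2 scale, with the limma standard error (SE). Summed signals of gene lists are not log2: they add the unlogged signals relative to the same percentile, so bright genes weigh most in them. On the WT arrays 76.0% to 79.3% of the probes passed the scanner software's test for signal above background. The share was 71.1% to 72.4% on *Nkx2-1*cKO 1 to 3 and 79.5% on *Nkx2-1*cKO 4. No spot was saturated. On WT 1 the dimmest 20% of probes lay, in the median, 1.42 above the median of the other arrays on the log2 scale, against -0.20 to 0.02 on the other arrays. The value without WT 1 is therefore given below for each of the 6 genes with probes, and not for the other genes named.

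In the ventral forebrain, the first OPCs arise from progenitors in and around the MGE that express NKX2-1, and OLIG2 acts in these progenitors before they choose between neuronal and oligodendrocyte fates. PDGF drives division of OPCs through the receptor PDGFRA, SOX10 and its relatives SOX8 and SOX9 act at successive steps of the lineage, and the receptor GPR17 marks precursors that are beginning to differentiate. Several of these genes have other sources: *Olig1* and *Olig2* are used by dividing progenitors, *Pdgfra* by mesenchyme, and *Cspg4* by pericytes.

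Promoter windows from RefSeq (build GRCm38.p6) were found for 4 of the 7 genes, and 3 are shown because their genes moved in different ways: *Pdgfra* was lower in the mutants, *Olig2* was level and *Sox8* was higher. Each window holds the 250 bases before the annotated start, 5′ to 3′ on the strand of the gene, and capitals mark E-boxes, the CANNTG letters that basic helix-loop-helix factors such as OLIG2 can bind.
Pdgfra, chr5:75152001-75152250, plus strand: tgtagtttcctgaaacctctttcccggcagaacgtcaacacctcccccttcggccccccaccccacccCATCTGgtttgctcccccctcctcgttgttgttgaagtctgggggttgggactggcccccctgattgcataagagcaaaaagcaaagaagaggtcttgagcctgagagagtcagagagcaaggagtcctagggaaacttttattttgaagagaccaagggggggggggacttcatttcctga
Olig2, chr16:91225300-91225549, plus strand: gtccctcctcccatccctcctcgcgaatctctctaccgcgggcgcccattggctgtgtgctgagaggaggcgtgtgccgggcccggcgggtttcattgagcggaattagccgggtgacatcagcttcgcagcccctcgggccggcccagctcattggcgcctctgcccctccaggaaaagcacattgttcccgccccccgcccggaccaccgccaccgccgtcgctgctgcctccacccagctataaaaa
Sox8, chr17:25570687-25570936, minus strand: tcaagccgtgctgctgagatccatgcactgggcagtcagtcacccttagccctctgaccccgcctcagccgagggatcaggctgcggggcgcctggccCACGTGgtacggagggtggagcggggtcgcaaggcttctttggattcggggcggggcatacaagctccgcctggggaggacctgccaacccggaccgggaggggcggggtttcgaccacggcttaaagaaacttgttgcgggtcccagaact
The windows of *Pdgfra* and *Sox8* each hold 1 E-box, and those of *Olig2* and *Cspg4* hold none. CANNTG was found in 66.2% of 32851 promoter windows of the same length, so a match is common. The other motifs searched, on both strands, were CAAGTG (an E-box as well, in 11.6% of windows), ACAAAG (16.5%), ACAATG (10.7%), TAATTA (4.84%) and ATGCAAAT (1.60%). In the 4 windows these gave a single match, ACAATG in that of *Olig2*. These matches are letters in a window and not sites of binding.

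Among the genes measured, 3 lay lower in every mutant array than in every WT array (*Gpr17*, *Pdgfra* and *Olig1*), 1 lay higher in every mutant array (*Sox8*), and 2 overlapped (*Olig2* and *Cspg4*). Over all 31231 tested probes with a value on every array, 4.11% had every mutant array below every WT array and 2.27% had every mutant array above. The genes were chosen with this contrast in view, so their counts are not read against these shares.

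**Figure D1:**
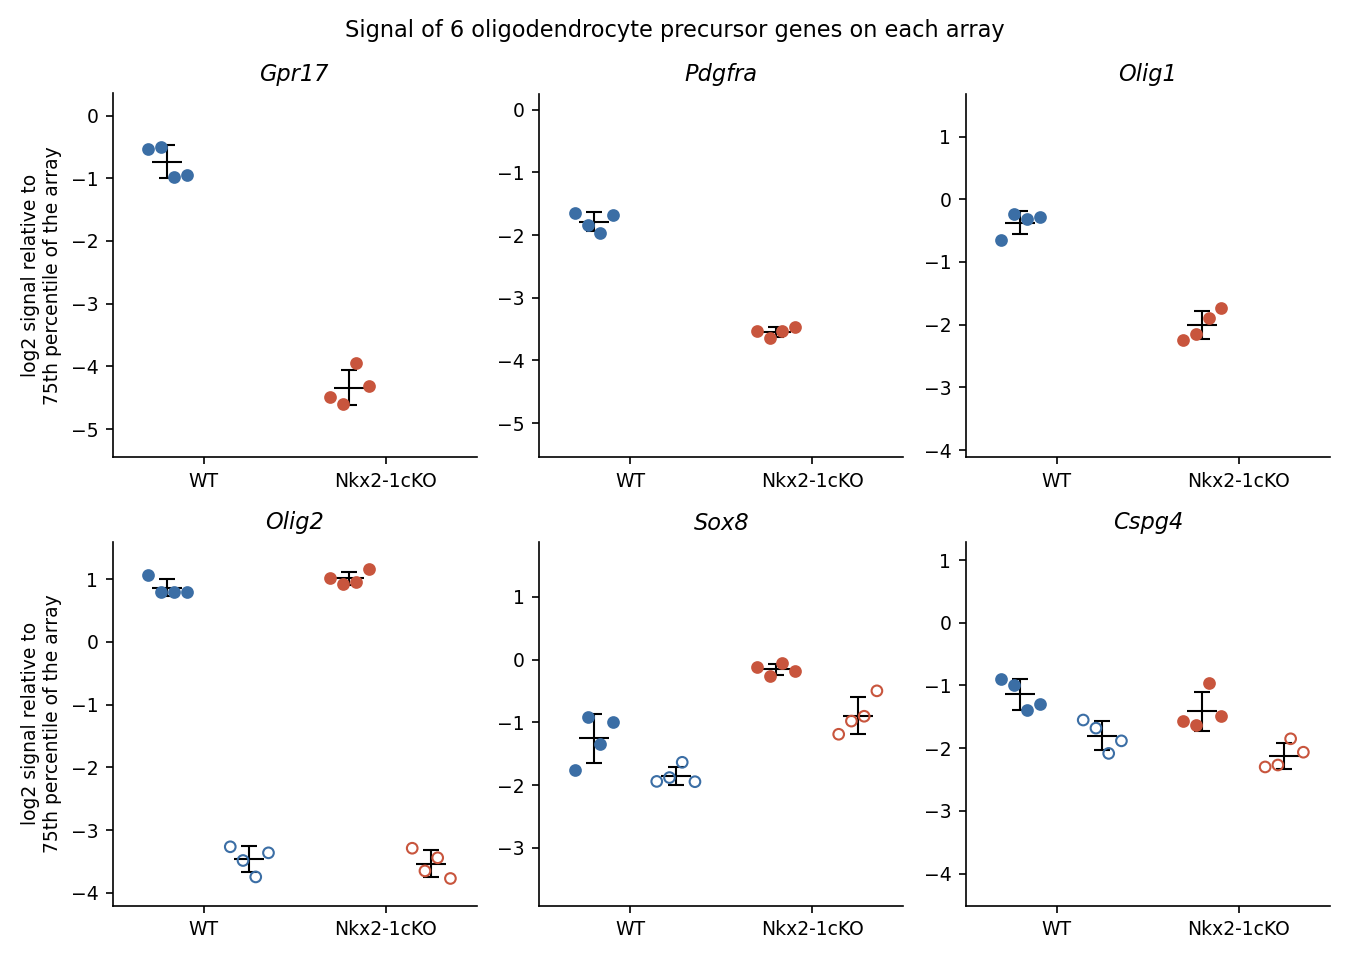
Log2 signal relative to the 75th percentile of the array (vertical axes, each spanning the same range) for 6 genes on the 4 WT (blue) and 4 *Nkx2-1*cKO (red) arrays. Points are arrays, lines are means with SD, filled points are the brighter tested probe and open points a second tested probe. *Gpr17*, *Pdgfra* and *Olig1* separate downward, *Sox8* separates upward with both probes, and *Olig2* and *Cspg4* overlap.

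*Gpr17* encodes a G protein-coupled receptor of the P2Y-related group that is switched on as OPCs commit to differentiate and is switched off again before they myelinate. Its signals were -0.53, -0.49, -0.97 and -0.95 in WT 1 to 4, and -4.49, -4.59, -3.95 and -4.32 in *Nkx2-1*cKO 1 to 4. The highest mutant value, in *Nkx2-1*cKO 3, lay far below the lowest WT value, in WT 3. The WT mean was -0.73 ± 0.26 and the mutant mean -4.34 ± 0.28 (SD, n = 4 each), a difference of -3.61 (SE 0.18). The mutant signal was 12.2-fold lower, at 8.22% of WT. Within slide 1 the groups differed by -3.71 and within slide 2 by -3.50, and without WT 1 by -3.54. Under normexp background correction the difference was -2.32. The mutant signal remained well above background on all 4 mutant arrays. A second *Gpr17* probe exceeded background on 2 WT arrays and 1 mutant array, was not tested, and overlapped between the groups with a difference of -0.33.

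*Pdgfra* encodes the receptor for PDGF that defines dividing OPCs. Its probe was printed 10 times on each array, and the spread between these spots within an array was an SD of 0.03 to 0.11. The signals were -1.65, -1.84, -1.97 and -1.68 in WT 1 to 4, and -3.53, -3.65, -3.53 and -3.47 in *Nkx2-1*cKO 1 to 4. Every mutant array lay below every WT array, and the mutant arrays were closer to each other than the WT arrays were. The WT mean was -1.79 ± 0.15 and the mutant mean -3.55 ± 0.07 (SD, n = 4 each), a difference of -1.76 (SE 0.11), or 3.38-fold lower. The mutant signal was 29.6% of WT. Slide 1 alone gave -1.75, slide 2 alone -1.77, and normexp background correction -1.04. Mesenchyme also uses *Pdgfra*, and WT 4 carried the highest summed signal of 10 mesenchymal genes, 7.80 against 1.24 to 1.998 on the other arrays. The *Pdgfra* signal of WT 4 lay below that of WT 1 and above those of WT 2 and WT 3, and the difference was -1.72 without WT 4 and -1.71 without WT 1. The part of mesenchyme in the *Pdgfra* difference was not tested. A second *Pdgfra* probe exceeded background on 1 WT array and was not tested.

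*Olig1* encodes a basic helix-loop-helix factor that acts in the generation and maturation of oligodendrocytes. Its signals were -0.64, -0.23, -0.32 and -0.29 in WT 1 to 4, and -2.24, -2.14, -1.89 and -1.74 in *Nkx2-1*cKO 1 to 4. WT 1 was the lowest WT array, and it still lay above all 4 mutant arrays. The WT mean was -0.37 ± 0.19 and the mutant mean -2.004 ± 0.23 (SD, n = 4 each), a difference of -1.63 (SE 0.14). The mutant signal was 3.10-fold lower, at 32.3% of WT. Slide 1 alone gave -1.46, slide 2 alone -1.81, and all arrays but WT 1 gave -1.72.

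*Olig2* lies next to *Olig1* on chromosome 16 and encodes the related factor that OPCs need for their specification. Its brighter probe gave 1.07, 0.80, 0.79 and 0.80 in WT 1 to 4, and 1.02, 0.92, 0.96 and 1.16 in *Nkx2-1*cKO 1 to 4. WT 1 stood above the other WT arrays and above 3 of the 4 mutant arrays, so the groups overlapped. The means were 0.87 ± 0.14 in WT and 1.02 ± 0.10 in the mutants (SD, n = 4 each), a difference of 0.15 (SE 0.10). The dimmer probe gave a difference of -0.07 (SE 0.16), and it overlapped as well. Leaving out WT 1 gave 0.22 for the brighter probe.

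*Sox8* encodes a SOXE factor related to SOX9 and SOX10 that oligodendrocyte lineage cells express. Its brighter probe gave -1.76, -0.91, -1.35 and -0.999 in WT 1 to 4, and -0.12, -0.27, -0.05 and -0.19 in *Nkx2-1*cKO 1 to 4. All mutant arrays lay above all WT arrays, and the WT arrays were the more spread out. The WT mean was -1.26 ± 0.39 and the mutant mean -0.16 ± 0.09 (SD, n = 4 each), a difference of 1.10 (SE 0.17), or 2.14-fold higher. Slide 1 alone gave 1.33, slide 2 alone 0.87, and all arrays but WT 1 gave 0.93. The second probe differed by 0.96 (SE 0.15), or 1.94-fold, and its groups did not overlap either.

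*Cspg4* encodes the NG2 proteoglycan that is used to identify OPCs and pericytes. Its brighter probe gave -0.89, -0.98, -1.39 and -1.30 in WT 1 to 4, and -1.57, -1.64, -0.96 and -1.48 in *Nkx2-1*cKO 1 to 4. *Nkx2-1*cKO 3 lay above 3 of the 4 WT arrays and the other mutant arrays lay below all of them, so the groups overlapped. The difference was -0.27 (SE 0.17) for this probe and -0.32 (SE 0.15) for the second, and without WT 1 the brighter probe gave -0.19. The summed signal of 7 pericyte genes was 8.18 to 9.71 in WT and 8.11 to 9.26 in the mutants.

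**Figure D2:**
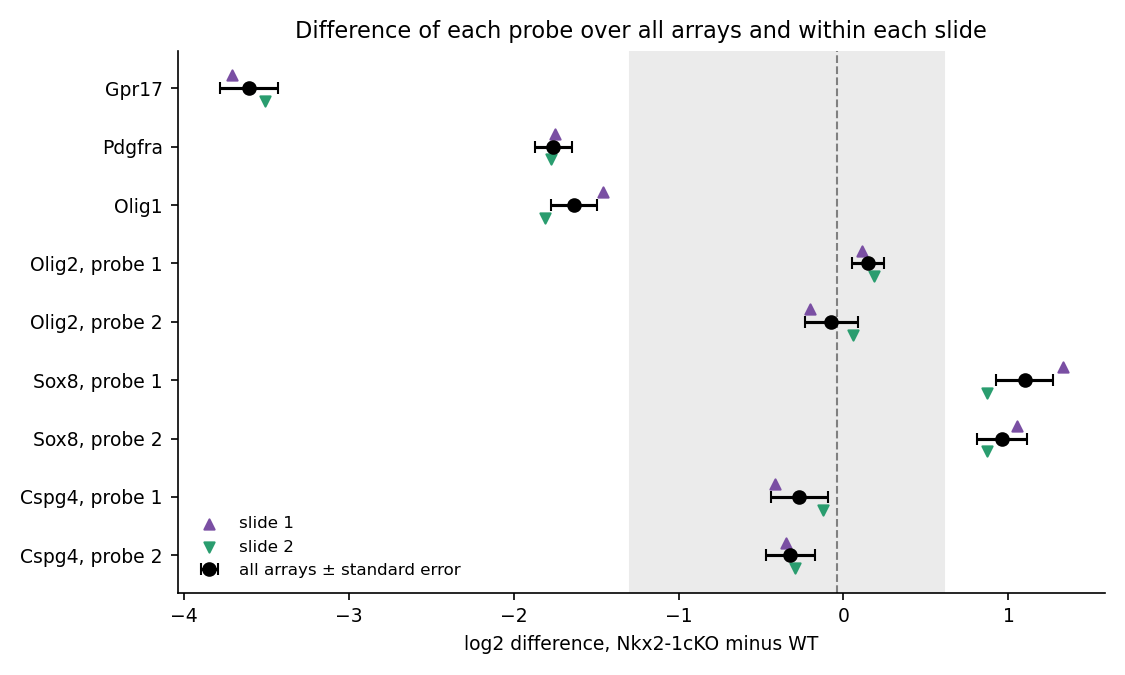
Log2 difference, *Nkx2-1*cKO minus WT, of each tested probe of the 6 genes over all 8 arrays with its SE (black) and within slide 1 and slide 2 (triangles). The grey band spans the 1st to the 99th percentile of all tested probes (-1.30 to 0.61) and the dashed line is their median (-0.04). *Gpr17*, *Pdgfra* and *Olig1* were lower and both *Sox8* probes higher on each slide. The genes were chosen on these same arrays, so their place relative to the band is a description and not a test.

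Genes next to the 6 genes were measured too, to show whether neighbouring transcripts moved with them. The gene *Lims2*, which overlaps *Gpr17*, differed by -0.32 (SE 0.34), and *Myo7b* on the other side by -0.46 (SE 0.32). *Gsx2*, a homeodomain factor of LGE progenitors that lies next to *Pdgfra*, differed by 0.42 (SE 0.15). *Lmf1* beside *Sox8* differed by 0.32 (SE 0.17), *Snx33* beside *Cspg4* by 0.23 (SE 0.12), and *Ifnar2* beside *Olig1* by 0.14 (SE 0.23). None of these passed the limma test across all probes (lowest adjusted p = 0.409, *Gsx2*). *Polr2f* and *Pick1*, on either side of *Sox10*, differed by 0.18 and 0.23.

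Over the 8 arrays, the genes most like *Gpr17* among 14419 compared were *Sox6* (r = 0.995), *Kiz*, *Ptf1a*, *Prkcq* and *Pdgfra* (r = 0.990). The pattern of *Pdgfra* was most like those of *Gbx2* (r = 0.997), *Rai2*, *Gbx1*, *Nkx2-1* and *Lhx8* (r = 0.992). The groups did not overlap for *Gpr17* or *Pdgfra*. After removal of the group means, r with *Gpr17* ranged from 0.16 (*Prkcq*) to 0.81 (*Sox6*) and was 0.34 for *Pdgfra*. For *Pdgfra* it ranged from 0.25 (*Nkx2-1*) to 0.95 (*Rai2*). *Olig2* was most like *Tmem248* (r = 0.987), *Stk39*, *Pdlim1*, *Stat4* and *Pprc1*, all genes with differences of 0.08 to 0.34. With *Olig2*, r after removal of the group means ranged from 0.95 (*Stat4*) to 0.98 (*Tmem248*), so this likeness follows the spread between arrays within the groups.

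Other genes of the lineage were examined in 6 lists of 89 genes, of which 73 were tested. In the mutants 4 rose, 4 fell and 65 did not pass, with a median difference of -0.16 against -0.04 over all tested probes. Across the array 0.422% of 31280 probes rose and 0.614% fell. The lists were chosen with earlier results of these data known, and each gene stands for its brightest tested probe. Their counts and median are therefore a description and are not read against the values over all probes.

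Of 13 specification factors tested, 1 rose and 2 fell. *Sox6*, which holds cells in the precursor state and is also used by MGE-derived interneurons, fell by 1.64 (SE 0.11, limma adjusted p = 8.4e-05), and its 4 probes all fell. *Zfp536*, a zinc finger gene, fell by 1.12 (SE 0.13, limma adjusted p = 0.0035). *Tcf7l2*, a WNT effector that acts in oligodendrocyte differentiation, rose by 0.99 (SE 0.10, limma adjusted p = 0.0016) with all 3 of its probes rising. *Nkx2-2*, which acts in differentiation of OPCs, differed by -0.91 (SE 0.33, limma adjusted p = 0.447) near the detection limit, with the sign turning to 0.48 under normexp background correction. *Sox9*, the glial SOXE factor, differed by -0.17 (SE 0.11, limma adjusted p = 0.657).

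Of 8 genes that hold back the oligodendrocyte fate, *Id4* rose by 0.60 (SE 0.11, limma adjusted p = 0.030), a call lost in 8 of 14 alternatives, and 7 did not pass. A second, dimmer *Id4* probe rose by 0.57 (SE 0.09, limma adjusted p = 0.012). Of 15 surface and matrix genes of OPCs, *Bcan*, the brain-enriched proteoglycan brevican, fell by 2.77 (SE 0.36, limma adjusted p = 0.0054) and 14 did not pass. None of 13 premyelinating and myelin genes passed the limma test, while 1 was higher and 3 were lower at an unadjusted p under 0.05, which 3.31% of all tested probes met in the higher and 5.29% in the lower direction. Of the 17 such genes on the array, 4 stayed below the filter on dim signal, among them *Mog*, *Opalin* and *Enpp6*.

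Of 19 signals that act on OPCs, 2 rose, 1 fell and 16 did not pass. *Shh*, the ventral morphogen that promotes OPC formation, fell by 1.71 (SE 0.19, limma adjusted p = 0.0025). *Boc*, a receptor component for SHH, rose by 0.77 (SE 0.13, limma adjusted p = 0.021), a call lost in 4 of 14 alternatives (without WT 2, *Nkx2-1*cKO 3 or *Nkx2-1*cKO 4, and with the replicate block). *Nrg1*, a growth factor for glia and neurons, rose by 0.86 (SE 0.13, limma adjusted p = 0.012) with 2 of its 3 probes passing, a call lost in 2 alternatives (without *Nkx2-1*cKO 1 and with the replicate block). *Pdgfa*, the ligand of PDGFRA, differed by -0.13 (SE 0.10, limma adjusted p = 0.696) while its receptor gene was lower. None of the 5 tested receptors related to *Gpr17* passed the limma test, and none did at an unadjusted p under 0.05.

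The summed signals of 2 of the lineage lists did not overlap between the groups. The specification factors summed to 32.6 to 39.2 in WT and 27.0 to 32.3 in the mutants, and the receptors related to *Gpr17* to 0.708 to 0.846 in WT and 0.907 to 0.973 in the mutants. In these lists 10 of 13 specification factors and all 5 receptors did not pass the limma test. No share for sums of other genes was taken, so the sums are a description and not a shift of each list.

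**Figure D3:**
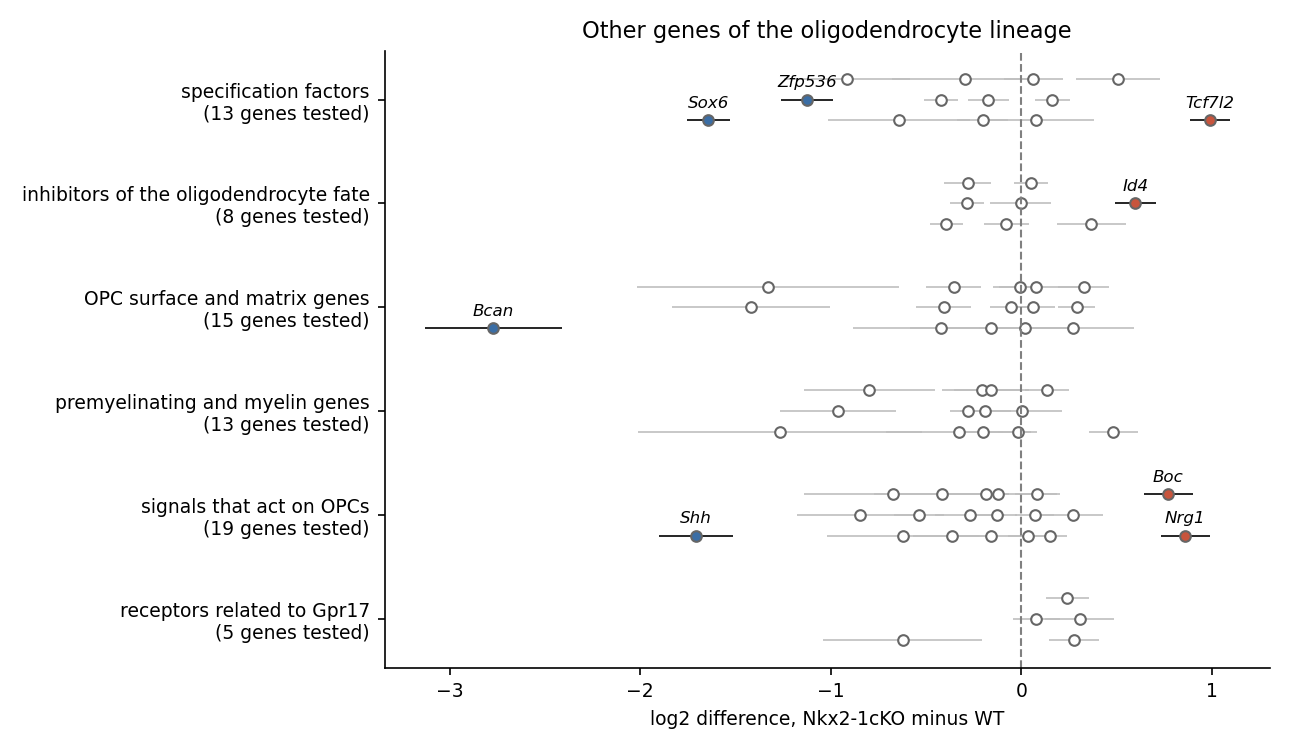
Log2 difference, *Nkx2-1*cKO minus WT, of each tested gene in 6 lists of other oligodendrocyte lineage genes, with its limma SE. Filled points passed an adjusted p of 0.05 over all probes (red higher, blue lower) and open points did not. The 8 genes that passed are spread over 4 lists, and none of the premyelinating and myelin genes passed.

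Lists for other cell types were measured beside these results. Of 12 genes of MGE-derived neurons, 9 fell, among them *Lhx6* (-4.20), *Lhx8* (-3.67), *Npy* (-3.53), *Maf* (-2.51), *Sst* (-1.73) and *Erbb4* (-1.65) (limma adjusted p from 5e-07 to 0.021). Their summed signal was 82.6 to 91.7 in WT and 40.1 to 43.7 in the mutants, which moved in the same direction as *Gpr17*, *Pdgfra* and *Olig1*, and the part of this in their values was not tested. None of the 8 radial glia, 6 astrocyte, 10 mesenchymal, 7 pericyte, 4 neural crest and Schwann cell, 6 endothelial, 6 microglial or 6 erythroid genes tested passed the limma test. At an unadjusted p under 0.05, 2 mesenchymal genes were lower (*Dcn* and *Prrx1*, named after their values were seen) and none of the other genes of these 8 lists passed. The differences of 9 of the 10 mesenchymal genes were below 0 over all arrays, and those of 6 without WT 4, an alternative chosen after seeing the data. The median difference of all tested probes was also below 0, at -0.04 over all arrays and -0.05 without WT 4.

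**Figure D4:**
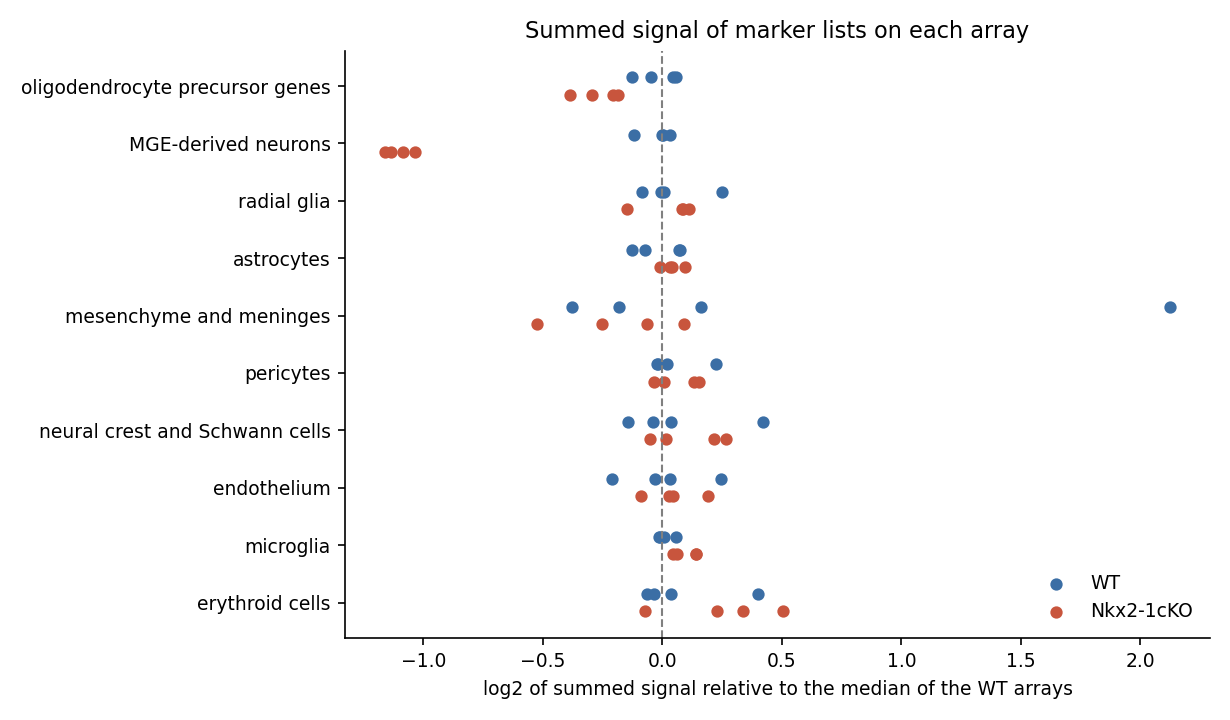
Summed signal of the oligodendrocyte precursor genes and of 9 lists for other cell types on each array, as log2 relative to the median of the WT arrays, for WT (blue) and *Nkx2-1*cKO (red). The sums of the oligodendrocyte precursor genes and of the genes of MGE-derived neurons separate downward in the mutants, and WT 4 stands apart for mesenchymal genes. The oligodendrocyte precursor genes were chosen on these same arrays and did not fall as a set. *Gpr17*, *Pdgfra* and *Olig1* were lower, *Sox8* was higher, and *Olig2* and *Cspg4* overlapped.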

How the data were processed

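RNA from E13.5 MGE was hybridised to 1-colour Agilent arrays, 1 sample per array. The deposited values are spot intensity after background subtraction and detrending by the authors' Feature Extraction software (version 10.7.3.1 in the file headers, 10.1 in the submitters' processing notes), without scaling between arrays. After removal of control and outlier spots, the log2 of each intensity was expressed relative to that array's own 75th percentile and averaged over the spots of a probe. Of 41174 probes, 24844 matched 17178 symbols in a RefSeq table of GRCm38.p6. The 31280 probes flagged above background on 4 or more of the 8 arrays were compared with limma 3.58.1 in R 4.3.3, with a variance trend, Benjamini-Hochberg adjustment and a threshold of 0.05. The procedure was tested on simulated data. The brightest tested probe represents a gene. The genes and lists were chosen with earlier results of these data known. Named genes are the 7 genes, list genes past the threshold (up to 10 per lineage list and 6 per cell type list), *Nkx2-2*, *Sox9*, *Pdgfa*, neighbours, and the 5 most correlated genes. Some genes that the rule names are not reported here. *Mog*, *Opalin* and *Enpp6* were named after their values were seen. Each of 2 slides, told apart by array barcode, held 2 arrays of each group. The labels do not say whether samples came from separate embryos, so p-values measure the spread between these samples, which may be technical. The number of arrays limits the precision. Alternatives were quantile normalization, normexp correction of the median signal (offset 50), no filter, the mean of a gene's probes, slide and replicate number as blocks, and leaving out each array.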

Additional observations from a re-analysis of the deposited data

Results flagged for a closer look

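In 50 groups of 4 arrays, 3 arrays lay apart from the rest of their group by Dixon's criterion, which chance gives in about 1 group in 20. *Olig2* was 1.07 on WT 1 against 0.79 to 0.80 on the other WT arrays. *Sox9* was 1.39 on WT 1 against 1.08 to 1.11. *Pdgfa* was 2.16 on WT 4 against 1.997 to 2.018.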

How the results depend on the processing

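The differences of *Gpr17*, *Pdgfra*, *Olig1*, *Olig2*, *Sox8* and *Cspg4* kept their sign under the alternatives run. Normexp correction moved *Gpr17* to -2.32, *Pdgfra* to -1.04 and *Olig1* to -1.25, and it gave 67 higher and 91 lower probes. It also moved the median of all probes from -0.04 to 0.19. With slide as a block 209 probes were higher. The deviations of same-numbered arrays from their group means had correlations from -0.48 to -0.19. Same-numbered arrays lay on different slides, and a slide difference would lower these correlations. They therefore cannot show whether the numbers are pairs, and the main fit did not treat them as pairs. With the replicate number as a block 8 probes were higher and 65 lower, with 1 lineage gene higher and 2 lower. Leaving out 1 array gave 64 to 120 higher probes (64 without *Nkx2-1*cKO 1, 72 without *Nkx2-1*cKO 4, 75 without *Nkx2-1*cKO 3, 78 without WT 4, 80 without WT 2 and 82 without WT 3), 131 to 174 lower probes, 2 to 4 higher lineage genes (2 without WT 2, *Nkx2-1*cKO 1, *Nkx2-1*cKO 3 or *Nkx2-1*cKO 4) and 4 to 5 lower ones. It gave -3.73 to -3.52 for *Gpr17*, -1.82 to -1.71 for *Pdgfra*, -1.72 to -1.55 for *Olig1*, 0.10 to 0.22 for *Olig2*, 0.93 to 1.21 for *Sox8* and -0.42 to -0.19 for *Cspg4*. The call of *Id4* was lost in 8 of 14 alternatives, *Boc* in 4, *Nrg1* in 2, and *Bcan*, *Zfp536* and *Shh* in 1 each. The cause of these changes was not tested. Dim probes such as *Nkx2-2* and the second probes of *Gpr17* and *Pdgfra* give little precision.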

Other observations

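*Gpr17* and *Cspg4* shared the same upper pair of WT arrays, in opposite order, and the same highest mutant array. In WT both were higher on WT 1 and WT 2 (*Gpr17* -0.53 and -0.49, *Cspg4* -0.89 and -0.98) than on WT 3 and WT 4 (*Gpr17* -0.97 and -0.95, *Cspg4* -1.39 and -1.30). Among the mutants both were highest on *Nkx2-1*cKO 3 (*Gpr17* -3.95, *Cspg4* -0.96). This was noticed after the values were seen and was not tested.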
